A study of Homo sapiens with 30 samples.

Results

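Of the 24462 gene symbols in the count tables, 9 genes of the enteroendocrine programme were taken by symbol from every library: the transcription factors PAX4, PAX6, INSM1, NEUROG3, NEUROD1 and NKX2-2, and the granule proteins CHGA, CHGB and SCG5. Enteroendocrine cells are the hormone-secreting cells of the gut epithelium. They arise from secretory progenitors in which Notch signalling is low; NEUROG3 starts the programme, NEUROD1, INSM1, PAX4, PAX6 and NKX2-2 act after it, and the granins fill the dense-core granules in which hormones are stored. SETDB1 is a histone methyltransferase that lays down a silencing mark on chromatin.

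Gene expression was counted by 3′ tag sequencing in 30 libraries of 3 human colorectal cancer cell lines, in 10 groups of 3 libraries. Cells carried hairpin vectors delivered by retrovirus and were selected with puromycin. In Caco2 the groups were SETDB1-hairpin cells sorted as KRT20-positive, SETDB1-hairpin cells sorted as KRT20-negative, scramble-hairpin cells in differentiation medium, and scramble-hairpin cells in vehicle. KRT20 is a keratin of mature colon epithelium, and the differentiation medium held troglitazone (10 uM), which activates PPARG, and 1α,25-dihydroxyvitamin D3 (25 nM), which activates VDR, from 3 days after transduction. In HCT116 and in SW480 the groups were SETDB1-hairpin cells of a keratin-positive fraction, SETDB1-hairpin cells of a keratin-negative fraction, and unsorted cells. The labels do not say which medium the SETDB1-hairpin cells were in, which keratin was sorted in HCT116 and SW480, or which hairpin the unsorted cells carried. In Caco2, hairpin, sort and medium therefore cannot be told apart in a comparison with scramble cells. Nothing in the labels says that replicates were separate cultures, so p-values measure the spread between these libraries, which may be technical.

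Library totals were 5349737 to 10221854 counts, and levels are CPM, counts scaled to library size, after TMM scaling of all libraries together. SETDB1, the target of the hairpin, had 20.3 to 26.8 CPM in KRT20-positive and 20.2 to 24.7 CPM in KRT20-negative Caco2 libraries, against 33.0 to 39.5 CPM in differentiation medium and 29.9 to 33.6 CPM in vehicle. Its log2 fold change over vehicle was −0.42 (edgeR adjusted p = 0.0119) in KRT20-positive and −0.52 (edgeR adjusted p = 0.00231) in KRT20-negative cells. In HCT116 SETDB1 had 2.00 to 29.1 CPM in KRT-positive and 0 to 5.43 CPM in KRT-negative libraries, against 16.4 to 68.2 CPM in unsorted cells. In SW480 it had 0 to 12.1 CPM in KRT-positive libraries, but the library labelled KRT-negative replicate 1 had 36.9 CPM, above all 3 unsorted libraries, which had 15.4 to 36.6 CPM. KRT20 was at 0 counts in 2 of the 3 HCT116 KRT-positive libraries. HCT116 and SW480 tables were also uneven: 20.2% of tested genes in HCT116 and 27.2% in SW480 had a replicate at 0 beside one of the same group with at least 30 counts, against 0.0215% in Caco2.

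By GENCODE 29 on GRCh38, PAX4 lies at chr7:127610292-127618114 on the minus strand, INSM1 at chr20:20368121-20370949 on the plus strand, NKX2-2 at chr20:21511010-21514026 on the minus strand and CHGA at chr14:92923080-92935293 on the plus strand. PAX6 lies at chr11:31784779-31818062, NEUROD1 at chr2:181673088-181680876 and NEUROG3 at chr10:69571698-69573238, all on the minus strand. CHGB lies at chr20:5911430-5925361 and SCG5 at chr15:32641676-32697098, both on the plus strand. How tags were assigned to strands is not stated. PAX6 is overlapped by ELP4 and PAUPAR on the other strand, and NEUROD1 by CERKL on its own strand. NKX2-2 is overlapped by its antisense RNA NKX2-2-AS1, and SCG5 by an antisense gene. Where the spans overlap, tags of these 4 genes may not be told from those of their partners.

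RefSeq promoter windows on GRCh38.p14, each running from 250 bases before a start to 50 after it, were at hand for 7 of the 9 genes, and INSM1 and CHGB were not among them. The windows of PAX4, NKX2-2 and CHGA are shown because these genes moved together in Caco2, as described next. Capitals mark matches, on either strand, to an E-box (CANNTG) or a cAMP response element (TGACGTCA). The PAX4 window is chr7:127618093-127618392 on the minus strand, the NKX2-2 window chr20:21522640-21522939 on the minus strand, upstream of the span that GENCODE gives, and the CHGA window chr14:92922900-92923199 on the plus strand.
PAX4: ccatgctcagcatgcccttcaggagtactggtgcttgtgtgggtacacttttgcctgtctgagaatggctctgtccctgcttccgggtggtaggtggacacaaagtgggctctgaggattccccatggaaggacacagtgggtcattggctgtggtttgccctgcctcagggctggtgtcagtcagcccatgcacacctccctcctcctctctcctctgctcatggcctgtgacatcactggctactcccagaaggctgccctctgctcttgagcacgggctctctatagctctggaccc
NKX2-2: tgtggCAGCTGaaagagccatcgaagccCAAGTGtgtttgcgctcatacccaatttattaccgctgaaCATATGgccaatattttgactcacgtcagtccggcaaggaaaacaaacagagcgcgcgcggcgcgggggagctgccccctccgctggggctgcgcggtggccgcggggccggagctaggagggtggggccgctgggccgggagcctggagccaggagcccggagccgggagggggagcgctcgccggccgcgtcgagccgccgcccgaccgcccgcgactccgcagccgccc
CHGA: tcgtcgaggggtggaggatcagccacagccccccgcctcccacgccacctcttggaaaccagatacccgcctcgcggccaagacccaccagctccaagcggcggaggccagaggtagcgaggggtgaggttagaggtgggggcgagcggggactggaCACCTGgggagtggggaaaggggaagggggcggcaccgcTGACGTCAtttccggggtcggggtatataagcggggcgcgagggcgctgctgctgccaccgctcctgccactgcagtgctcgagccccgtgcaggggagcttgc
The windows differ in base composition. The PAX4 window holds 2 CpG dinucleotides, the NKX2-2 window 35 and the CHGA window 24, beside a median of 14 over 35116 windows. A second PAX4 window, at chr7:127615978-127616277, holds 0. A second NKX2-2 window, at chr20:21512911-21513210 inside the GENCODE span, holds 18, with 0 E-boxes and 1 match to TATAAA. The E-box is found 3 times in the NKX2-2 window and 1 time in that of CHGA, and in 68.7% of all windows. The cAMP response element is found in the CHGA window and in 1.85% of all windows. No match to TATAAA (11.5% of all windows), TAATTA (4.84%), AGGTCA (13.8%) or the left part (TTCAGCACC, 0.376%) or right part (0.259%) of the REST site was found in the 3 windows shown, which says only that these letters are not in them.

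SETDB1-hairpin Caco2 cells of both keratin fractions had PAX4, INSM1, NKX2-2 and CHGA transcripts that scramble cells had at or near 0 counts. CHGB, SCG5 and PAX6 had low counts in all 4 Caco2 groups, and NEUROG3, which starts the programme, and NEUROD1 were at 0 or 1 count in every Caco2 library. Of the 9 genes 5 passed the filter on low counts in Caco2 and were tested: PAX4, PAX6, INSM1, NKX2-2 and CHGA. Except for PAX6, these passed through the SETDB1-hairpin groups alone, so the number called among them carries no weight of its own. In KRT20-positive cells 4 of the 9 were called higher than in vehicle at a false discovery rate of 5%, where 19.3% of the 13968 genes tested were called higher and 37.7% in either direction. In KRT20-negative cells the same 4 were called higher, where 18.6% of genes tested were, and 36.2% in either direction. These comparisons share the vehicle libraries.

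PAX4 encodes a paired-box repressor that in mouse gut is needed for several kinds of hormone cell. PAX4 was counted 49, 50 and 54 times in the KRT20-positive and 57, 68 and 85 times in the KRT20-negative libraries, against 0, 1 and 1 times in differentiation medium and 0 times in all 3 vehicle libraries. Every SETDB1-hairpin library stood far above every scramble library, and the fractions overlapped each other. Of all genes tested, 24.8% in KRT20-positive and 22.8% in KRT20-negative cells likewise had every library above every vehicle library, and 23.7% and 23.6% above every differentiation medium library. The PAX4 level was 6.99 ± 0.25 CPM in KRT20-positive and 7.98 ± 1.13 CPM in KRT20-negative cells, against 0.0974 ± 0.0851 CPM in differentiation medium (SD, n = 3 each). Against 3 counts over the vehicle group, PAX4 was at least 49.5-fold higher in KRT20-positive cells (edgeR adjusted p = 1.06e-09) and at least 56.7-fold higher in KRT20-negative cells (edgeR adjusted p = 6.8e-10).

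INSM1 encodes a zinc finger factor that marks endocrine progenitors and neuroendocrine tumours. INSM1 was counted 86, 118 and 102 times in KRT20-positive and 99, 97 and 77 times in KRT20-negative libraries, against 0, 3 and 4 times in differentiation medium and 1, 0 and 3 times in vehicle. All 6 SETDB1-hairpin libraries again lay above all 6 scramble libraries. INSM1 averaged 13.97 ± 1.99 CPM in KRT20-positive and 10.53 ± 2.12 CPM in KRT20-negative cells, against 0.337 ± 0.294 CPM in differentiation medium and 0.202 ± 0.246 CPM in vehicle (SD, n = 3 each). The ratio to vehicle was 74.3 in KRT20-positive cells (counting interval 28.7 to 274, edgeR adjusted p = 4.24e-10) and 55.3 in KRT20-negative cells (counting interval 21.4 to 204.5, edgeR adjusted p = 3.27e-09). Counting intervals here are exact, at 95%, and cover counting error only.

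NKX2-2 encodes a homeodomain factor needed for hormone cell subtypes in mouse gut and islet. NKX2-2 was counted 53, 31 and 33 times in KRT20-positive and 41, 53 and 20 times in KRT20-negative libraries, against 4, 1 and 0 times in differentiation medium and 3, 0 and 0 times in vehicle. The lowest SETDB1-hairpin library, KRT20-negative replicate 3, still lay above every scramble library. NKX2-2 averaged 5.38 ± 1.81 CPM in KRT20-positive and 4.47 ± 2.20 CPM in KRT20-negative cells, against 0.217 ± 0.252 CPM in differentiation medium and 0.128 ± 0.222 CPM in vehicle (SD, n = 3 each). With 3 vehicle counts, the ratio to vehicle was 37.9 in KRT20-positive cells (counting interval 12.6 to 186, edgeR adjusted p = 9.73e-06) and 30.8 in KRT20-negative cells (counting interval 10.3 to 152, edgeR adjusted p = 2.73e-05).

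CHGA encodes chromogranin A, the main granin of endocrine granules. CHGA was counted 40, 34 and 43 times in KRT20-positive and 35, 31 and 30 times in KRT20-negative libraries, against 0 times in all 3 differentiation medium libraries and 1, 1 and 0 times in vehicle. All SETDB1-hairpin libraries stood above all scramble libraries, and each KRT20-positive library had a higher CPM of CHGA than each KRT20-negative one. CHGA averaged 5.35 ± 0.63 CPM in KRT20-positive and 3.69 ± 0.50 CPM in KRT20-negative cells, against 0.0895 ± 0.0777 CPM in vehicle (SD, n = 3 each). With 2 vehicle counts, the ratio to vehicle was 56.8 in KRT20-positive cells (counting interval 15.4 to 474, edgeR adjusted p = 7.06e-08) and 38.9 in KRT20-negative cells (counting interval 10.5 to 326, edgeR adjusted p = 6.85e-07).

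**Figure D1:**
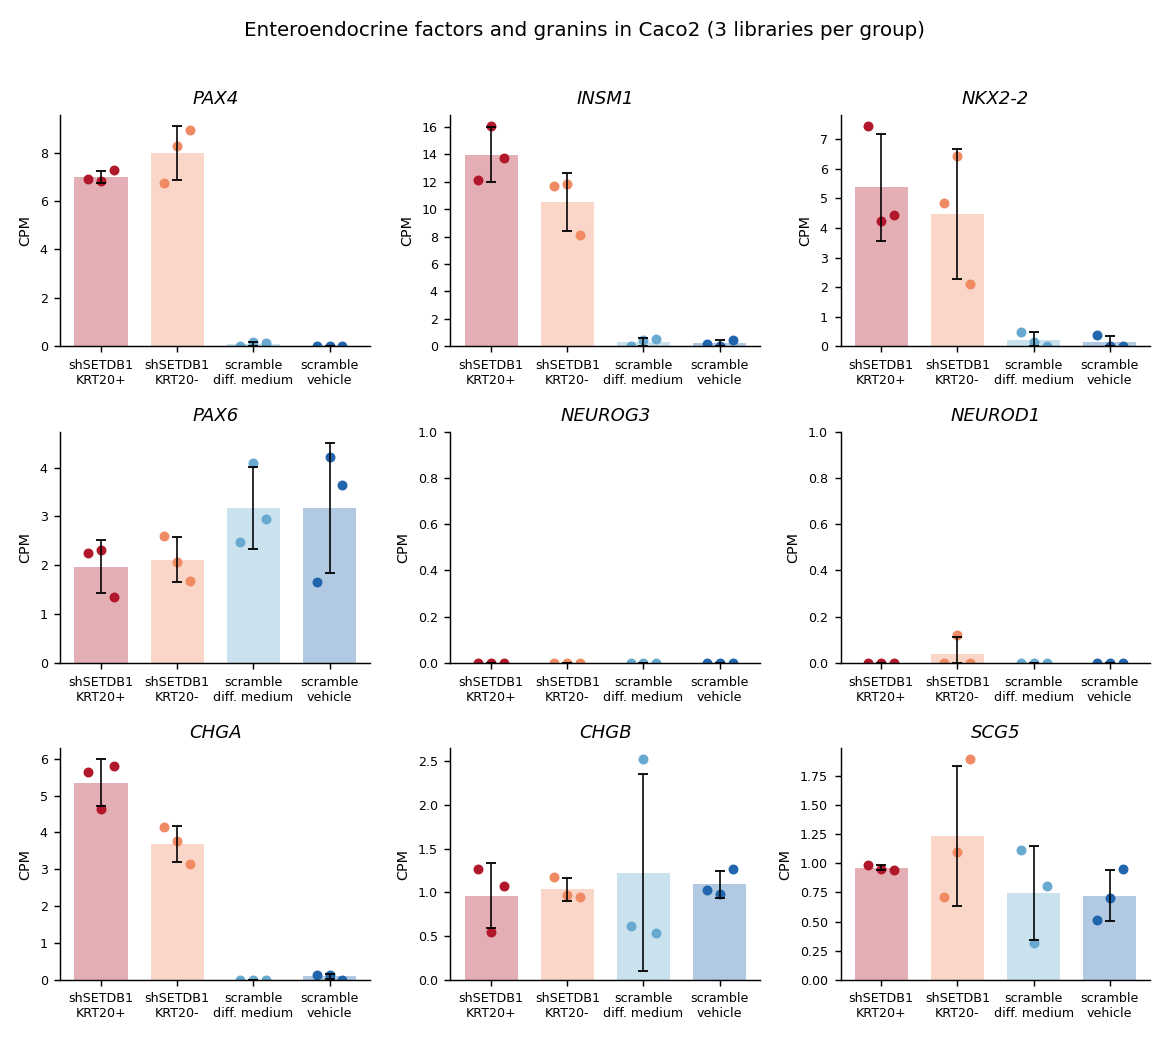
Levels of the 9 genes in the 12 Caco2 libraries, in CPM on a linear axis that differs between panels; points are libraries, bars are group means, and error bars are SD cut off at 0. PAX4, INSM1, NKX2-2 and CHGA stand at 2.10 to 16.07 CPM in all 6 SETDB1-hairpin libraries and at 0 to 0.537 CPM in all 6 scramble libraries, while PAX6, CHGB and SCG5 have counts in all 12.

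The other granule genes of the set were at low counts in every Caco2 group. CHGB, chromogranin B, was counted 9, 4 and 8 times in KRT20-positive and 10, 8 and 9 times in KRT20-negative libraries, against 5, 16 and 4 times in differentiation medium and 8, 7 and 8 times in vehicle. The groups overlapped, and without the low-count filter the log2 fold change over vehicle was −0.17 in KRT20-positive (edgeR adjusted p = 0.92) and −0.08 in KRT20-negative cells (edgeR adjusted p = 0.986). SCG5, a chaperone of the prohormone convertase PCSK2, was counted 7, 7 and 7 times in KRT20-positive and 6, 9 and 18 times in KRT20-negative libraries, against 9, 2 and 6 times in differentiation medium and 4, 5 and 6 times in vehicle. The SCG5 groups overlapped too, and its ratio to vehicle was 1.36 in KRT20-positive (counting interval 0.668 to 2.83) and 1.78 in KRT20-negative cells (counting interval 0.942 to 3.53). For CHGB the same ratio was 0.886 (counting interval 0.467 to 1.68) and 0.951 (counting interval 0.525 to 1.74). Whether the ratio of CHGA differs from those of CHGB and SCG5 was not tested, since these intervals cover counting error only.

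PAX6, which drives hormone gene transcription, had counts in every Caco2 library. PAX6 was counted 16, 17 and 10 times in KRT20-positive and 22, 17 and 16 times in KRT20-negative libraries, against 20, 26 and 22 times in differentiation medium and 13, 30 and 23 times in vehicle. The SETDB1-hairpin libraries overlapped those of vehicle, and all 3 KRT20-positive libraries lay below those in differentiation medium, as did those of 25.1% of tested genes. The log2 fold change over vehicle was −0.65 (SE 0.39, edgeR adjusted p = 0.202) in KRT20-positive and −0.57 (SE 0.38, edgeR adjusted p = 0.256) in KRT20-negative cells. PAX6 did not pass the test in either fraction.

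NEUROG3 had 0 counts in all 30 libraries. With 3 counts taken as the limit, this allows up to 0.294 to 0.561 CPM, depending on the library. NEUROD1 had 1 count in the 12 Caco2 libraries, in KRT20-negative replicate 2. ATOH1, the basic helix-loop-helix factor of all secretory lineages, was also at 0 counts in all 30 libraries.

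Against scramble cells in differentiation medium the 4 genes were again higher. In KRT20-positive cells 4 of the 9 were called higher, where 18% of genes tested were and 34.5% in either direction. In KRT20-negative cells 4 of the 9 were, where 19.6% of genes tested were and 38% in either direction. The PAX4 ratio was 76.5 in KRT20-positive (counting interval 20.8 to 638) and 87.7 in KRT20-negative cells (counting interval 24.0 to 729), on 2 counts in differentiation medium. INSM1 was 43.7 times (counting interval 21.0 to 110) and 32.6 times (counting interval 15.6 to 81.8) its differentiation medium level. For NKX2-2 the ratio was 23.4 (counting interval 9.75 to 73.5) and 19.1 (counting interval 7.93 to 59.8), and CHGA, at 0 counts in differentiation medium, was at least 39.0-fold and at least 26.7-fold higher. The edgeR adjusted p-values of these 8 results ran between 1.01e-09 and 4.86e-05, and PAX6 was not called in either (edgeR adjusted p = 0.207 and 0.248).

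Differentiation medium itself, in scramble cells, called 0 of the 9 genes against vehicle, where 20.9% of genes tested were called. None of the 5 tested had an unadjusted p under 0.05. PAX4, INSM1, NKX2-2 and CHGA had at most 7 counts over either group, so a call was hardly possible for them. The lowest edgeR adjusted p-values, 0.232 for CHGA and 0.243 for PAX4, rest on 2 counts each, and no fold is given for either. INSM1 had 7 counts in differentiation medium and 4 in vehicle, a ratio of 1.70 with a counting interval of 0.432 to 7.91, which includes 1. KRT20, which had more counts, was at 7.98 ± 1.51 CPM in differentiation medium and 1.05 ± 0.21 CPM in vehicle (SD, n = 3 each). Its log2 fold change was 2.93 (edgeR adjusted p = 1.18e-07).

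Between the keratin fractions 0 of the 9 genes were called, where 4.08% of genes tested were. CHGA had a log2 fold change of 0.55 (SE 0.32, edgeR adjusted p = 0.405) and INSM1 of 0.43 (SE 0.25, edgeR adjusted p = 0.424), both with no overlap between the 3 KRT20-positive and the 3 KRT20-negative libraries, a separation that 9.15% of tested genes showed in that direction. NKX2-2 stood at 0.29 (SE 0.42), PAX6 at −0.08 (SE 0.40) and PAX4 at −0.18 (SE 0.25). KRT20, on which the cells were sorted, was 33.79 ± 6.32 CPM in KRT20-positive and 1.35 ± 0.42 CPM in KRT20-negative cells (SD, n = 3 each). The sum of counts of PAX4 in KRT20-positive over KRT20-negative cells gave a ratio of 0.873 with a counting interval of 0.704 to 1.08.

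Across the 12 Caco2 libraries the 4 genes followed each other, with Pearson r of log2 CPM between 0.91 for INSM1 and NKX2-2 and 0.98 for PAX4 and INSM1, while PAX6 ran against them at −0.64 to −0.53. The libraries share their groups, so these values restate the group differences in part. The genes most alike to PAX4 in pattern were APOA2 (r = 0.997), TTR (r = 0.997) and SCRN2 (r = 0.996), among tested genes that averaged 5 CPM or more. For INSM1 they were ASL (r = 0.989) and NEURL1 (r = 0.986), and for NKX2-2 KLF3 (r = 0.975), PHYH and ENPP4 (r = 0.972 each). For CHGA they were PDCD4 (r = 0.992), ATP2B1 and GSTA1 (r = 0.991 each), and for PAX6 TUBE1 (r = 0.866), WSB2 (r = 0.862) and EXT2 (r = 0.846). APOA2 averaged 1316 and 1365 CPM in the KRT20-positive and KRT20-negative cells, against 471 CPM in differentiation medium and 412 CPM in vehicle, a smaller step than that of PAX4. NEURL1 had 13.92 and 9.41 CPM in the KRT20-positive and KRT20-negative cells, against 1.06 CPM in differentiation medium and 0.966 CPM in vehicle.

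The nearest tested genes on either side of the 4 genes had far smaller fold changes. GCC1, ARF5, SND1 and SND1-IT1 around PAX4 had log2 fold changes over vehicle of −0.18 to 0.25 in KRT20-positive cells and of −0.04 to 0.17 in KRT20-negative cells, with none called. Beside INSM1, RALGAPA2 was called at 0.49 in KRT20-positive and 0.44 in KRT20-negative cells, and KIZ, 755 kb away, was called at 0.70 in KRT20-negative cells and had 0.43 in KRT20-positive cells (edgeR adjusted p = 0.107). CRNKL1 and NAA20, on the other side of INSM1, were not called. Beside NKX2-2, XRN2 was called lower at −0.35 in KRT20-positive and −0.42 in KRT20-negative cells, and the nearest tested genes on the other side, LINC00261 and FOXA2, 1033.6 kb and 1067.0 kb away, were not called. ITPK1, which starts 1.62 kb past the end of CHGA, was called lower at −0.46 in KRT20-positive and −0.82 in KRT20-negative cells, while GOLGA5, LGMN and ITPK1-AS1 were not called. No neighbour passed a log2 fold change of 1 in either direction. These calls stand beside 37.7% of all genes tested that were called in KRT20-positive and 36.2% in KRT20-negative cells, in either direction.

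**Figure D2:**
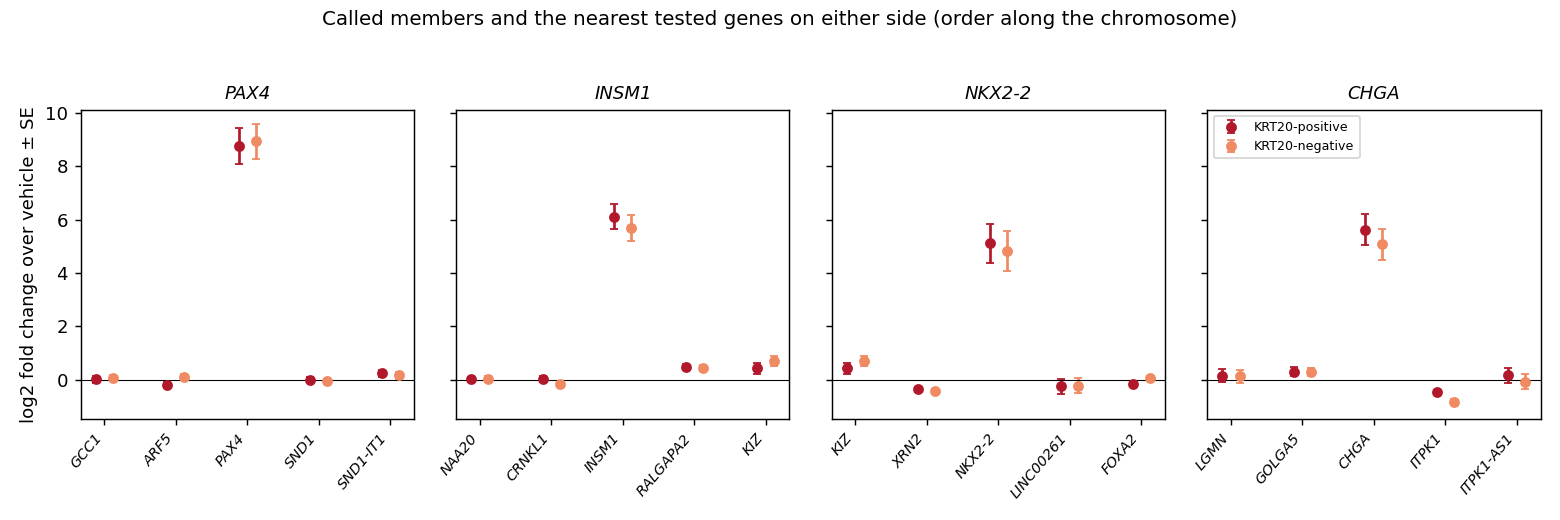
Log2 fold change over vehicle, with its SE, of PAX4, INSM1, NKX2-2 and CHGA and of the 2 nearest tested genes on either side, in their order along the chromosome; each point is an edgeR estimate for KRT20-positive or KRT20-negative Caco2 cells. The 4 genes stand at 4.83 to 8.92, an estimate that for PAX4 depends on the prior count since vehicle is at 0, and their neighbours at −0.82 to 0.70.

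Some other factors of the enteroendocrine lineage were also called higher in the SETDB1-hairpin cells. Of 24 listed, 14 were tested, and 6 were called higher and 0 lower in KRT20-positive cells, and 9 higher and 1 lower in KRT20-negative cells, over vehicle. In KRT20-positive cells this is 42.9% of those tested, near the 37.7% of all genes tested. In KRT20-negative cells it is 71.4%, beside 36.2%. The median log2 fold change of the list was 0.65 in KRT20-positive and 0.85 in KRT20-negative cells, beside 0.01 over all genes tested in each. RFX6, which acts after NEUROG3 in islet and gut, was counted 8, 14 and 17 times in KRT20-positive and 17, 34 and 22 times in KRT20-negative libraries, against 8, 3 and 1 times in differentiation medium and 1, 2 and 0 times in vehicle. In CPM, every SETDB1-hairpin library lay above every scramble library. RFX6 too passed the filter on low counts through the SETDB1-hairpin groups alone, so its call carries no weight in the share above. With 3 vehicle counts, the RFX6 ratio to vehicle was 12.6 in KRT20-positive (counting interval 4.01 to 63.8, edgeR adjusted p = 0.000769) and 19.7 in KRT20-negative cells (counting interval 6.49 to 97.8, edgeR adjusted p = 6.54e-05). MYT1, a partner of NEUROG3 in endocrine commitment, had a log2 fold change of 2.16 (SE 0.45) in KRT20-positive and 2.34 (SE 0.44) in KRT20-negative cells. SOX4, a factor of endocrine progenitors, averaged 981 CPM in KRT20-positive and 1076 CPM in KRT20-negative cells, against 571 CPM in vehicle, and ONECUT2 17.6 CPM and 16.1 CPM against 9.37 CPM, all called. In differentiation medium against vehicle 0 of these factors were called higher and 3 lower, 21.4% of those tested, near the 20.9% of all genes tested.

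Of 23 genes of granule formation and prohormone processing 14 were tested, and 5 were called higher and 0 lower in each SETDB1-hairpin fraction over vehicle. At 35.7% of those tested, this share was near that of all genes tested, 37.7% and 36.2%. The median log2 fold change was 0.36 in both, beside 0.01 over all genes tested. CADPS, which primes dense-core vesicles for release, was counted 36, 27 and 39 times in KRT20-positive and 57, 58 and 89 times in KRT20-negative libraries, against 0 times in all 3 differentiation medium libraries and 0, 0 and 1 times in vehicle. On that 1 vehicle count, the CADPS ratio to vehicle was 99.0 in KRT20-positive (counting interval 17.4 to 3948.8, edgeR adjusted p = 7.56e-08) and 165 in KRT20-negative cells (counting interval 29.3 to 6562.0, edgeR adjusted p = 5.88e-09). CADPS passed the filter on low counts through the SETDB1-hairpin groups alone, so its call carries no weight in the share above. CPE, the carboxypeptidase that trims prohormones, averaged 136 CPM in KRT20-positive and 129 CPM in KRT20-negative cells, against 69.8 CPM in differentiation medium and 43.8 CPM in vehicle, and was also called higher in differentiation medium than in vehicle (edgeR adjusted p = 4.31e-05). SCGN, a calcium sensor of endocrine cells, averaged 83.6 CPM in KRT20-positive and 105 CPM in KRT20-negative cells, against 52.7 CPM in vehicle. SYT7, a calcium sensor of granule fusion, had log2 fold changes of 0.37 (SE 0.09) in KRT20-positive and 0.25 (SE 0.09, edgeR adjusted p = 0.0409) in KRT20-negative cells, where its call was lost in 8 alternatives.

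Hormone transcripts were few in all Caco2 groups. Of 15 listed hormone and serotonin synthesis genes 1, NTS, passed the filter in Caco2. NTS, neurotensin, was counted 2, 4 and 3 times in KRT20-positive and 5, 4 and 6 times in KRT20-negative libraries, against 8, 3 and 5 times in differentiation medium and 29, 15 and 17 times in vehicle. The log2 fold change of NTS over vehicle was −2.73 (SE 0.51, edgeR adjusted p = 0.000165) in KRT20-positive and −2.28 (SE 0.46, edgeR adjusted p = 0.00045) in KRT20-negative cells. NTS was also lower in differentiation medium than in vehicle (log2 fold change −1.95, edgeR adjusted p = 0.00362). The 15 genes summed to 1.83 to 4.04 CPM in KRT20-positive and 1.54 to 2.56 CPM in KRT20-negative libraries, against 1.89 to 3.36 CPM in differentiation medium and 3.09 to 5.00 CPM in vehicle. NTS made up 61 of the 84 counts of this sum in vehicle. MLN, motilin, led in SETDB1-hairpin cells, with 34 of 66 counts in KRT20-positive and 25 of 55 in KRT20-negative cells. The sum therefore does not show how the hormone genes other than NTS moved. In bulk libraries a different number of hormone cells and a different level of hormone RNA per cell cannot be told apart. The same holds for every gene above.

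**Figure D3:**
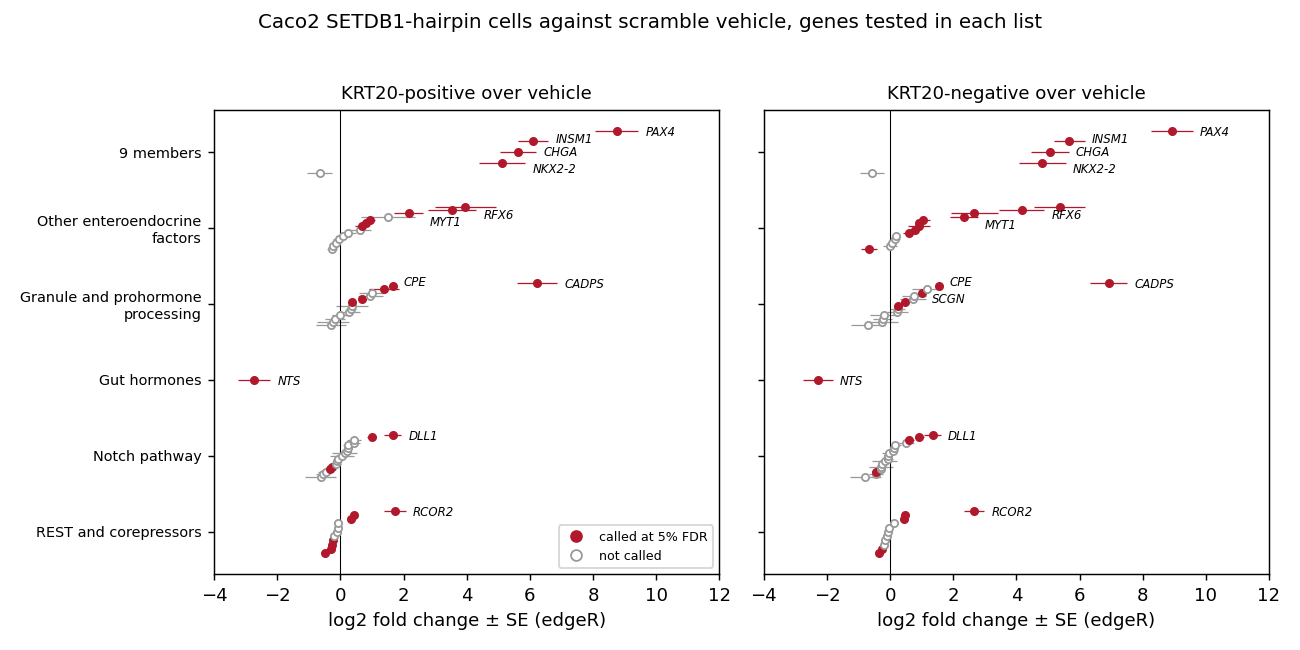
Log2 fold change over vehicle, with its SE, of the tested genes of the 9 and of 5 gene lists, in KRT20-positive (left) and KRT20-negative (right) Caco2 cells; filled red points were called by edgeR at a false discovery rate of 5%. PAX4, INSM1, CHGA and NKX2-2 stand between 4.83 and 8.92, CADPS at 6.22 and 6.93, and the Notch and REST lists lie mostly around 0.

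Notch ligands and targets set how many cells enter the secretory lineage. Of 19 listed genes 17 were tested, and 2 were called higher and 2 lower in KRT20-positive, and 3 higher and 1 lower in KRT20-negative cells, over vehicle. That is 23.5% of those tested in each fraction, beside 37.7% of all genes tested in KRT20-positive and 36.2% in KRT20-negative cells. DLL1, a ligand of secretory progenitors, averaged 13.7 CPM in KRT20-positive and 11.2 CPM in KRT20-negative cells, against 2.77 CPM in differentiation medium and 4.39 CPM in vehicle (log2 fold change over vehicle 1.66 and 1.35). DLL3, a ligand found in neuroendocrine cells, averaged 27.8 CPM in KRT20-positive and 26.8 CPM in KRT20-negative cells, against 14.1 CPM in vehicle, and was likewise higher, at 24.9 CPM, in differentiation medium. HES1, the Notch target that represses the endocrine programme, had log2 fold changes of −0.34 (edgeR adjusted p = 0.0128) in KRT20-positive and −0.26 (edgeR adjusted p = 0.0549) in KRT20-negative cells. JAG1 was called lower in KRT20-positive cells at −0.27 and in KRT20-negative cells at −0.43.

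REST represses neuronal and endocrine genes outside their lineages. Of REST and its corepressors, 11 genes and all tested, 3 were called higher and 4 lower in KRT20-positive, and 3 higher and 2 lower in KRT20-negative cells, over vehicle. That is 63.6% of those tested in KRT20-positive and 45.5% in KRT20-negative cells, beside 37.7% and 36.2% of all genes tested. The 4 lower calls in KRT20-positive cells numbered 1 to 2 with any 1 of the 6 libraries left out. RCOR2 averaged 5.54 CPM in KRT20-positive and 10.83 CPM in KRT20-negative cells, against 1.68 CPM in differentiation medium and 1.68 CPM in vehicle (log2 fold change over vehicle 1.72 and 2.67). CTDSP1 was called higher at 0.42 and 0.46 and RCOR3 at 0.34 and 0.45, and HDAC2 was called lower at −0.47 and −0.34, in KRT20-positive and KRT20-negative cells in this order. REST itself averaged 106 CPM in KRT20-positive and 109 CPM in KRT20-negative cells, against 130 CPM in vehicle, given as levels only.

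Markers of other cell types differed between the groups too. The 11 colonocyte markers summed to 1831 to 2052 CPM in KRT20-positive and 1086 to 1299 CPM in KRT20-negative libraries, against 208 to 246 CPM in differentiation medium and 166 to 173 CPM in vehicle; of the 7 tested, 3 were called higher over vehicle in KRT20-positive and 2 in KRT20-negative cells, most of the sum was FABP1, and MS4A12 was at 0 counts in all Caco2 groups but KRT20-negative. The 6 Paneth markers summed to 123 to 126 CPM in KRT20-positive and 161 to 166 CPM in KRT20-negative libraries, against 68.1 to 71.8 CPM in differentiation medium and 59.2 to 66.5 CPM in vehicle, and of the 2 tested, 2 were called higher in KRT20-positive and 1 in KRT20-negative cells. The 8 goblet markers summed to 616 to 645 CPM in KRT20-positive and 461 to 619 CPM in KRT20-negative libraries, against 521 to 570 CPM in differentiation medium and 671 to 723 CPM in vehicle. Of the 5 goblet markers tested, 3 were called higher in KRT20-positive, and 2 higher and 1 lower in KRT20-negative cells, so the calls do not follow the sum. The 7 tuft markers summed to 5.04 to 6.20 CPM in KRT20-positive and 4.94 to 6.21 CPM in KRT20-negative libraries, against 4.61 to 6.59 CPM in vehicle, and these ranges overlapped. Most of the neuronal, tuft and leukocyte markers did not pass the low-count filter: of 8 neuronal markers 2 were tested and of 7 tuft markers 1, with 0 called in either fraction over vehicle, and of 6 leukocyte markers 2 were tested and 1 was called higher in each. These counts stand beside 37.7% of all genes tested that were called in KRT20-positive and 36.2% in KRT20-negative cells. Of 8 fibroblast markers 7 were tested and 0 were called, but all 8 were higher in KRT20-negative replicate 3 than in the other 11 Caco2 libraries, with COL6A3 at 274 CPM against 6.67 to 18.1 CPM. In that library PAX4 was the highest, and INSM1, NKX2-2 and CHGA the lowest, of the KRT20-negative replicates, and without it all 4 genes were still called. The part of these markers in the results was not tested.

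In HCT116 and SW480 no library had more than 1 count of PAX4, INSM1 or NKX2-2. PAX4 had 0 counts in all 18 libraries of these lines, INSM1 had 0 counts in HCT116 and 2 in the 9 SW480 libraries, and NKX2-2 had 0 counts in HCT116 and 1 in SW480. In HCT116 only SCG5 passed the filter, and 0 of the 9 genes were called in KRT-positive (9.28% of genes tested called) or KRT-negative cells (5.26%) against unsorted cells, or between the fractions (0.55%). In SW480 CHGA, CHGB and PAX6 were tested, and 0 of the 9 were called in KRT-positive (3.47%) or KRT-negative cells (2.12%) against unsorted cells, or between the fractions (0.445%). None of the tested genes had an unadjusted p under 0.05 in these 6 comparisons. That the lines differ was not tested.

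CHGA was present in every SW480 library. CHGA was counted 174, 125 and 316 times in KRT-positive and 59, 139 and 90 times in KRT-negative libraries, against 239, 162 and 168 times in unsorted cells. Its level was 20.85 ± 9.37 CPM in KRT-positive and 10.54 ± 4.62 CPM in KRT-negative cells, against 24.88 ± 10.14 CPM in unsorted cells (SD, n = 3 each). All KRT-negative libraries lay below all unsorted ones, as in 12% of tested genes, and the KRT-positive libraries overlapped both. The log2 fold change over unsorted cells was −1.22 (SE 0.76, edgeR adjusted p = 0.587) in KRT-negative and −0.22 (SE 0.75, edgeR adjusted p = 0.951) in KRT-positive cells, and that of KRT-positive over KRT-negative cells was 1.01 (SE 0.76, edgeR adjusted p = 0.749). The mean CPM of CHGA was higher in every SW480 group than in any Caco2 group.

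CHGB and PAX6 were also counted in SW480, with wide spread. CHGB was counted 0, 138 and 92 times in KRT-positive and 22, 32 and 0 times in KRT-negative libraries, against 84, 95 and 144 times in unsorted cells. The KRT-negative libraries lay below the unsorted ones, as in 12% of tested genes, and the log2 fold change was −2.72 (SE 2.01, edgeR adjusted p = 0.703). PAX6 was counted 289, 129 and 0 times in KRT-positive and 184, 51 and 17 times in KRT-negative libraries, against 115, 156 and 385 times in unsorted cells, and the groups overlapped (log2 fold change over unsorted −0.83 in KRT-positive and −1.50 in KRT-negative cells, edgeR adjusted p = 0.875 and 0.816). SCG5 was counted 13 times in 1 KRT-positive library and 83 times in 1 unsorted library, and 0 times in the other 7.

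HCT116 had almost no counts of the 9 genes. SCG5 was at 0 counts in all 3 KRT-positive libraries, 15, 0 and 0 in KRT-negative, and 0, 23 and 19 in unsorted cells. PAX6 had 50 counts in KRT-negative replicate 1 and 1 count in the other 8 libraries together. NEUROD1 had 62 counts in KRT-negative replicate 2, 39 in unsorted replicate 1 and 0 in the other 7 libraries. CHGA had 0, 1 and 7 counts in unsorted cells and 0 in both sorted fractions, and CHGB had 0 counts throughout. Each of these values comes from 1 or 2 libraries of a group whose other libraries are at or near 0, the unevenness described above.

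HCT116 and SW480 libraries also fall into classes by how counts depend on the GC content of transcripts. In SW480 replicate 2 of each group is in the low class, and with the high class alone the log2 fold change of CHGA was −1.77 in KRT-negative and −0.15 in KRT-positive cells over unsorted cells (edgeR adjusted p = 0.534 and 0.974), of CHGB −3.56 and −1.63, and of PAX6 −1.45 and −1.01. In HCT116 the low class holds 1 KRT-negative, 3 KRT-positive and 2 unsorted libraries. A KRT-negative comparison in this class rests on 1 library, so nothing is concluded from it. Over all libraries SCG5 stood at −1.97 in KRT-negative cells over unsorted cells (edgeR adjusted p = 0.823).

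**Figure D4:**
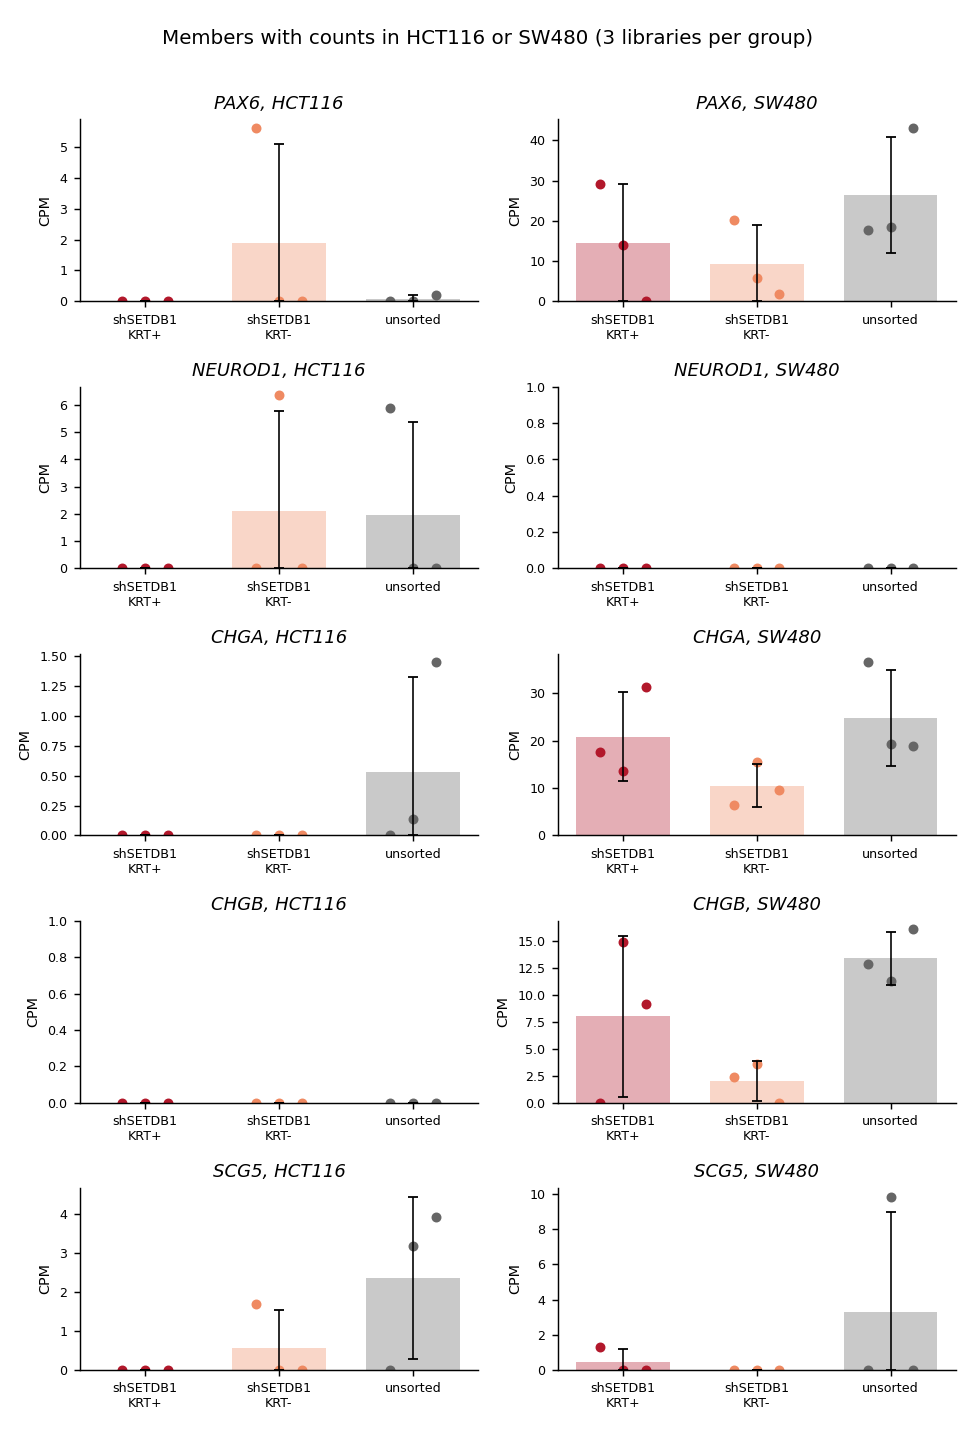
Levels in HCT116 (left) and SW480 (right) of the 5 genes with more than 2 counts in either line, in CPM on a linear axis that differs between panels; points are libraries, bars are means, and error bars are SD cut off at 0. CHGA has counts in all 9 SW480 libraries, whereas PAX6 and NEUROD1 in HCT116 rest on 1 library of a group.

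Of the other factors, hormone, granule, Notch and REST genes listed, 52 were tested in HCT116 and 52 in SW480. Over unsorted cells, 5 of them were called in KRT-positive HCT116 cells (9.62%, beside 9.28% of all genes tested) and 2 in KRT-negative (3.85%, beside 5.26%). In SW480 4 were called in KRT-positive (7.69%, beside 3.47%) and 0 in KRT-negative cells (beside 2.12%). ETV1, a factor of some enteroendocrine cells, averaged 10.27 CPM in KRT-positive and 13.76 CPM in KRT-negative HCT116 cells, against 93.74 CPM in unsorted cells (edgeR adjusted p = 0.00596 and 0.0208). HES1 was called lower and JAG1 higher in KRT-positive over unsorted cells of both lines, HES1 at −2.70 and −1.98 and JAG1 at 1.49 and 2.24 in HCT116 and SW480 in this order. KDM1A was called lower in both HCT116 fractions, at −1.74 in KRT-positive and −1.07 in KRT-negative cells.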

How the data were processed

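The authors deposited 1 table of raw counts per gene symbol for each of 30 libraries, made with a QuantSeq 3′ kit per the labels' protocols; hg19, Bowtie2 and edgeR are named, without versions, per the submitters' processing notes. Counts of 286 repeated symbols were summed, which left 24462 symbols, and no library was a copy of another. The 9 genes and all lists were chosen with earlier results of these data known. Each cell line was fitted with edgeR 4.0.16 in R 4.3.3 (filterByExpr, TMM, robust quasi-likelihood F test, all groups of the line, Benjamini-Hochberg adjustment over all tested genes), without a replicate block, and genes were called at a false discovery rate of 5%. CPM came from 1 TMM normalization of all 30 libraries. Ratios of pooled counts carry exact 95% intervals, and a group at 0 was set to 3 counts. Besides the 9 genes, up to 4 genes per list with the smallest adjusted p in KRT20-positive cells over vehicle, genes called in HCT116 or SW480, and the 3 genes most alike to a gene in pattern were named. Some genes that this rule picks are not reported here. Positions are from GENCODE 29. GC classes came from the slope of a library's log2 CPM on transcript GC content. Alternatives were other size factors, no filter, DESeq2 1.42.0, only the 2 groups compared, a replicate block, leaving out each replicate, and GC class. Python 3.11.15 and matplotlib 3.10.9 were used, and the fit was tested on simulated data.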

Additional observations from a re-analysis of the deposited data

How the results depend on the processing

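The 16 results called for PAX4, INSM1, NKX2-2 and CHGA in Caco2 kept their direction and their call in 192 of 192 alternatives, with a highest adjusted p of 0.000787. Of 328 alternatives for results not called, 314 kept direction and side, 0 became called and 14 turned direction; the cause was not tested. PAX6 in differentiation medium over vehicle was −0.0387 with library totals only and −0.0018 with no low-count filter, and −0.32 to 0.27 with a replicate left out. With a replicate left out, NKX2-2 in that comparison ran between −0.81 and 3.88. Between KRT20-positive and KRT20-negative cells PAX6 ran between −0.23 and 0.13 and NKX2-2 between −0.0597 and 0.65. SCG5 in HCT116 was 0.15 for KRT-negative over unsorted cells in the low GC class, a choice made after seeing the data that rests on 1 KRT-negative library, and −5.93 to 0.00 for KRT-positive over KRT-negative cells with a replicate left out. In SW480, CHGA in KRT-positive over unsorted cells ran between −0.63 and 0.17 and PAX6 in KRT-positive over KRT-negative cells between −0.35 and 1.96.

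Among listed genes, SYT7 in KRT20-negative cells over vehicle lost its call in 8 alternatives. HES1 gained a call there in 5 alternatives. HES1 in KRT20-positive cells lost its call without vehicle replicate 2, and JAG1 and RCOR3 without KRT20-positive replicate 1. Counts of all genes called moved most in HCT116 and SW480: with DESeq2, KRT-negative over unsorted cells gave 1211 in place of 698 in HCT116 and 709 in place of 281 in SW480, KRT-positive over unsorted cells 1862 in place of 1232 and 1204 in place of 460, and KRT-positive over KRT-negative cells 405 in place of 73 and 404 in place of 59. With only the 2 groups compared, Caco2 KRT20-positive over KRT20-negative cells gave 307 in place of 570, HCT116 KRT-positive over KRT-negative cells 126, and SW480 KRT-negative over unsorted, KRT-positive over unsorted and KRT-positive over KRT-negative cells 432, 228 and 18. With GC class as a term these 3 SW480 comparisons gave 531, 887 and 224, in the high GC class 122, 238 and 24, and with the replicate block 461, 793 and 179. HCT116 KRT-positive over KRT-negative cells gave 45 with GC class as a term. Counts of genes called in the low GC class are not given for HCT116 KRT-negative cells, of which it holds 1 library. With no low-count filter KRT-positive over KRT-negative cells gave 189 in HCT116 and 101 in SW480. With a replicate left out, the counts were 297 to 651 for Caco2 KRT20-positive over KRT20-negative cells, with 297 to 358 where a KRT20-positive library was left out. In HCT116 they were 395 to 730 for KRT-negative and 812 to 983 for KRT-positive over unsorted cells, and 15 to 130 between the fractions. In SW480 they were 130 to 188, 219 to 510 and 7 to 98 in the same order. The granule genes called higher in KRT20-positive cells over vehicle were 8 in place of 5 with only the 2 groups compared, and the REST list's lower calls 2 in place of 4 with library totals only.

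Replicate numbers were not used to pair libraries, since the labels name no shared culture, day or batch. Whether same-numbered libraries share an effect was not tested. Deviations of same-numbered libraries correlated at 0.00122 to 0.0925 in Caco2, with no differently numbered pairs beside them. For HCT116 this was −0.0233 to 0.0739, and for SW480 0.00739 to 0.115, where replicate 2 of each group is in the low GC class and the block raised the calls as given above. With the replicate block the number of the 9 genes called did not change, at 4 in KRT20-positive and 4 in KRT20-negative cells over vehicle. Over all genes the block raised the calls in every Caco2 comparison. They numbered 803 in place of 570 in KRT20-positive over KRT20-negative cells and 3455 in place of 2925 in differentiation medium over vehicle. Depth limits the genes not called or not tested. In a Caco2 library PAX6, tested but not called, had at most 30 counts, and CHGB and SCG5, not tested, at most 18.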

Other observations

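MLN, the hormone motilin, was the most counted of the 15 hormone and serotonin synthesis genes in the SETDB1-hairpin Caco2 cells, with 34 counts in KRT20-positive and 25 in KRT20-negative cells, against 12 in differentiation medium and 12 in vehicle. It did not pass the filter on low counts and was named after its values were seen. In SW480 KRT-positive cells SST, somatostatin, had 74 counts, all in replicate 3. The 15 genes together summed to 4.25 to 7.55 CPM in the SW480 KRT-positive libraries. In the KRT-negative libraries of this line the sum was 0 to 0.636 CPM, and in the unsorted ones 0 to 0.765 CPM. This difference was not tested, and SW480 counts were uneven as described above.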
